A study of Mus musculus with 16 samples.

Results

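The genes described here are 10 components of the transforming growth factor beta (TGF-β) pathway, chosen by name: the ligand genes *Tgfb1*, *Tgfb2* and *Tgfb3*, the latent ligand-binding protein gene *Ltbp1*, the receptor genes *Tgfbr1* and *Tgfbr2*, the signal transducer gene *Smad3*, the inhibitor genes *Smad7* and *Skil*, and the matrix gene *Tgfbi*. All 10 were among the 14474 genes with counts. RNA sequencing was performed on immortalized mouse keratinocytes (MK cells) that lack the α3 integrin subunit (MKα3-) and on the same null cells after reconstitution with human α3 integrin (MKα3+). Integrin α3β1 is a receptor through which epidermal cells bind laminin-332 (LN332), a basement membrane protein. Each line received LN332 at 0.02 mg/mL or an equal volume of its vehicle, buffered saline with glycine and azide, for 16 to 24 h on collagen-coated dishes, giving 4 groups of 4 libraries. The MKα3+ cells thus carry a human transgene on the null background, each genotype is represented by 1 line, and human and mouse α3 are not separated by these mouse counts. Mouse *Itga3*, the targeted gene, was counted at 211 to 317 CPM (counts scaled to library size) across the 16 libraries, with overlapping ranges in MKα3- and MKα3+ cells, so its level does not check the line labels.

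TGF-β ligands are secreted in a latent form, bound to their own propeptide and to latent TGF-β binding proteins such as LTBP1, and are released by integrins, proteases or thrombospondin. Active ligand binds the type II receptor TGFBR2, which phosphorylates the type I receptor TGFBR1, and this in turn phosphorylates SMAD2 and SMAD3. In keratinocytes the pathway is known for arresting growth and for inducing matrix and migration genes, and it induces its own inhibitors, among them SMAD7, which targets the receptor, and SKIL (SnoN), which represses SMAD target genes.

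The promoters of *Tgfbr1*, *Tgfbr2* and *Smad3* are shown because these genes were higher in MKα3+ than in MKα3- vehicle-treated cells. Each line holds the 250 bases before a RefSeq start site (GRCm38.p6), for *Tgfbr1* the first of its 2 start sites, on the strand of the gene, 5′ to 3′, with GC boxes (GGGCGG on either strand) in capitals. They lie at chr4:47352972-47353221 (plus strand), chr9:116175364-116175613 (minus strand) and chr9:63757995-63758244 (minus strand).
Tgfbr1: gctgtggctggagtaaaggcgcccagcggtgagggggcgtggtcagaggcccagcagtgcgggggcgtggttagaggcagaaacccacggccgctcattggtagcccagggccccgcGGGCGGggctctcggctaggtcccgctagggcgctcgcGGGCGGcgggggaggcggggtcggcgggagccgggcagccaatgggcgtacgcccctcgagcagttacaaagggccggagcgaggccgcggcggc
Tgfbr2: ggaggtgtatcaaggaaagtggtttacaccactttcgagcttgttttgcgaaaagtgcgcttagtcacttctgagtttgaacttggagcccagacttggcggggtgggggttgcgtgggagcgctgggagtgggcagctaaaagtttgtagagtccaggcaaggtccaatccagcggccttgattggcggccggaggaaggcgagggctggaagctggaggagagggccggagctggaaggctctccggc
Smad3: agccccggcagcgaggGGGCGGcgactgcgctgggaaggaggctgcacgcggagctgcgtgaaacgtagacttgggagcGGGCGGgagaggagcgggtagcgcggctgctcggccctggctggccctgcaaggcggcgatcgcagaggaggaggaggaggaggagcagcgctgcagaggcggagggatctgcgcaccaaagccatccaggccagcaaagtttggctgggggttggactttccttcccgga
The *Tgfbr1* and *Smad3* windows each held 2 GC boxes and the *Tgfbr2* window held 0, while 32.7% of all 32851 promoters of this length held at least 1. The letters CAGAC, part of known SMAD-binding sites, had 1 match on either strand in the *Tgfbr2* window and 0 in the others, and 42.2% of all promoters held them. The AP-1 letters TGANTCA had 0 matches in these 3 windows, against 6.75% of all promoters. GC content was 74.8% for *Tgfbr1*, 58.4% for *Tgfbr2* and 69.2% for *Smad3*, with a median of 52.4% over all promoters. The window before the other *Tgfbr1* start, at chr4:47385966-47386215 (plus strand, not shown), held 0 GC boxes, 1 match of CAGAC and 0 of TGANTCA, with a GC content of 52.8%. RefSeq promoter sequences were matched for 7 of the 10 genes.

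The libraries held between 21735708 and 29338370 counts, with a median of 27036993. Libraries of the same number deviated in the same direction for several members: replicate 1 had the lowest *Tgfbr2* and *Tgfbi* levels in 4 of 4 groups and the lowest *Tgfbr1*, *Ltbp1* and *Tgfb3* levels in 3 of 4, while it had the highest *Smad7* level in 4 of 4 and the highest *Skil* level in 3 of 4. Results that rest on these libraries are therefore also given without them. The labels do not say whether replicates were separate cultures, so p-values measure only the spread between these libraries. The keratinocyte markers were present in every group, and the lowest of the 8, *Trp63*, had a mean of 53.4 CPM in MKα3+ LN332 libraries and 123 CPM in MKα3- vehicle libraries. In LN332, *Krt5* and *Trp63* were lower and *Cdh1* was higher in MKα3+ cells, so 3 of 8 keratinocyte markers themselves passed the test. Of the other markers listed, 5 of 8 fibroblast, 4 of 6 immune, 2 of 5 melanocyte and 4 of 4 endothelial genes were among those with counts. The levels of the rest are not known. The summed levels of 5 fibroblast markers (11.6 to 40.7 CPM) and 4 endothelial markers (3.33 to 6.45 CPM) were low in all groups, and none of them passed the test. The summed level of 4 immune markers was 23.4 to 50.5 CPM in MKα3- vehicle, 13.1 to 37.8 CPM in MKα3- LN332, 36.1 to 94.5 CPM in MKα3+ vehicle and 24.1 to 88.1 CPM in MKα3+ LN332 libraries, and 1 of them, *Itgam*, was higher in MKα3+ vehicle libraries. Of 2 melanocyte markers, *Pmel* was lower in MKα3+ cells in both treatments. The macrophage marker *Adgre1* ranged from 0.106 to 35.2 CPM and *Itgam* from 0.319 to 27.8 CPM across the 16 libraries, and no marker measured was at 0 in any library. The part of these marker differences in the results below was not tested.

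Per kilobase of exon, *Tgfbr2* had the highest level of the 10 genes and *Tgfb2* and *Tgfb3* the lowest in every group. In MKα3- vehicle libraries *Tgfbr2* stood at 30.5 ± 1.196 CPM per kb (SD, n = 4). *Tgfb1* (10.9 ± 2.997), *Smad3* (10.7 ± 0.737), *Tgfbr1* (9.15 ± 0.826) and *Ltbp1* (9.05 ± 2.66) followed at levels that differed by less than the SD of *Tgfb1*. *Smad7* (6.61 ± 1.48) and *Skil* (5.67 ± 0.609) were next, also within their spread of each other, and *Tgfbi* stood at 3.70 ± 1.36 CPM per kb. *Tgfb3* (0.218 ± 0.119) and *Tgfb2* (0.148 ± 0.0262) were far below, with overlapping errors. In MKα3+ vehicle libraries *Tgfbr2* stood at 45.8 ± 5.32 CPM per kb, *Smad3* at 15.7 ± 0.640 and *Tgfbr1* at 15.3 ± 2.08, followed by *Ltbp1* at 11.1 ± 2.35 and *Tgfb1* at 11.1 ± 0.729. The order of these levels was thus changed by *Smad3* and *Tgfbr1*, which in MKα3- cells stood level with *Tgfb1*. Lengths were taken from GENCODE exons, not from the annotation used for counting, so levels per kb are approximate.

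**Figure D1:**
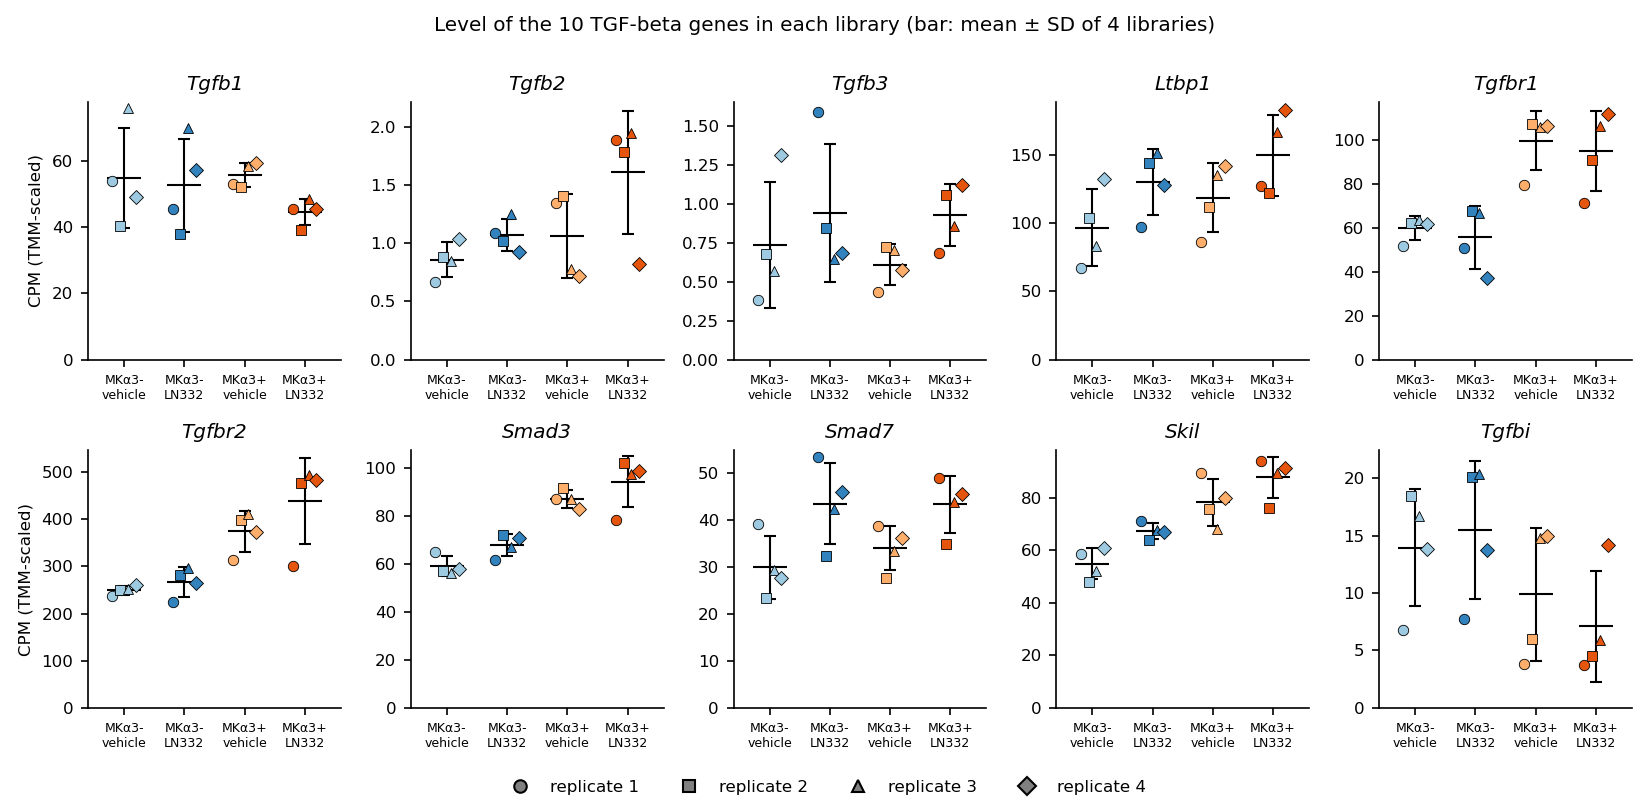
TMM-scaled CPM of each of the 10 genes (y axis, from 0) in the 16 libraries, by group (x axis), with the replicate number as the symbol and the mean ± SD of 4 libraries as the bar. MKα3+ libraries lie above all MKα3- libraries of the same treatment for *Tgfbr1*, *Tgfbr2*, *Smad3* and *Skil*, while the other 6 genes overlap between the lines. The share of all genes without such overlap was not counted. By limma-voom adjusted p under 0.05 alone, 4115 of all 14474 genes differed between the lines in vehicle and 4654 in LN332.

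The comparison of MKα3+ with MKα3- cells addresses which transcripts differ between the lines. With 1 line per genotype, dependence on the α3 integrin cannot be told apart from other differences between the lines. In vehicle, 4 of the 10 genes were higher in MKα3+ cells, both receptor genes, *Smad3* and *Skil*, by 1.42 to 1.66-fold, and 0 were lower. A gene was called where the limma-voom adjusted p was under 0.05 and the absolute log2 fold change over 0.5. Of all 14474 genes tested, 18.5% were called in this comparison, 10.9% as higher and 7.56% as lower, so a difference between these lines was common. The median log2 fold change was 0.29 over the 10 genes and 0.01 over all genes. The 10 genes were chosen with earlier results of these data known, so their median is a description and not an independent test. In LN332, 2 of the 10 were called, again the receptor genes, and both were higher in MKα3+ cells, against 20.6% of all genes called (11.7% higher and 8.92% lower). The median was again 0.29 for the 10 genes and 0.01 for all genes. Without the 4 libraries of number 1, the genes called were *Tgfbr1*, *Tgfbr2* and *Smad3* in vehicle (3 genes) and these with *Tgfbi* in LN332 (4 genes). The share of all genes called in that smaller fit is not given here, so these counts cannot be set against it. In bulk samples, more RNA per cell and more cells that express a gene cannot be told apart.

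*Tgfb1* made up nearly all of the ligand transcript and did not differ detectably between the lines. Its level in vehicle was 54.0, 40.4, 75.9 and 49.0 CPM in MKα3- replicates 1 to 4 and 53.1, 52.2, 58.4 and 59.5 CPM in MKα3+ replicates 1 to 4. The groups overlapped, with a wider spread in MKα3- cells. The line difference was 0.06 on the log2 scale (SE 0.18, 95% interval -0.31 to 0.43, limma-voom adjusted p = 0.829) in vehicle and -0.20 (SE 0.18, 95% interval -0.58 to 0.18, adjusted p = 0.432) in LN332. Per kb of exon, *Tgfb1* accounted for 92.6% to 97.95% of the summed level of the 3 ligands in each of the 16 libraries.

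*Tgfb2* and *Tgfb3*, the other ligand genes, were close to the limit of measurement. *Tgfb2* had 19 to 50 counts per library and *Tgfb3* 11 to 41, which gave 0.667 to 1.95 CPM for *Tgfb2* and 0.386 to 1.59 CPM for *Tgfb3*. At this depth the line difference in vehicle was 0.25 (95% interval -0.46 to 0.97) for *Tgfb2* and -0.16 (95% interval -0.99 to 0.68) for *Tgfb3* on the log2 scale, so neither was shown to differ or to be alike. In LN332 the values were 0.49 (95% interval -0.17 to 1.15) for *Tgfb2* and 0.05 (95% interval -0.72 to 0.81) for *Tgfb3*. Replicate 4 of MKα3+ LN332 had 0.824 CPM of *Tgfb2* where the others had 1.79 to 1.95, and without that library *Tgfb2* was called higher in MKα3+ LN332 cells, with a log2 fold change of 0.78 (limma-voom adjusted p = 0.0427). Exons of both genes are overlapped by transcripts of the other strand, and the library kit named in the labels does not mark strand, so reads of these overlapping transcripts cannot be told apart.

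*Ltbp1*, whose product holds latent TGF-β in the matrix, varied more between replicates than between lines. Vehicle-treated libraries had 66.8, 104, 83.5 and 133 CPM in MKα3- replicates 1 to 4 and 86.3, 112, 135 and 142 CPM in MKα3+ replicates 1 to 4, so the lines overlapped. On the log2 scale the difference was 0.32 (SE 0.21, 95% interval -0.12 to 0.75, limma-voom adjusted p = 0.270) in vehicle and 0.20 (SE 0.21, 95% interval -0.24 to 0.64, adjusted p = 0.49996) in LN332.

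The type I receptor gene *Tgfbr1* (chromosome 4, 47353222 to 47414931, plus strand) had the largest line difference of the 10 genes among those called. In vehicle it had 51.7, 62.2, 63.3 and 61.9 CPM in MKα3- replicates 1 to 4 and 79.2, 107, 106 and 106 CPM in MKα3+ replicates 1 to 4. In LN332 it had 51.0, 67.5, 66.8 and 37.1 CPM in MKα3- cells and 71.0, 90.7, 106 and 112 CPM in MKα3+ cells. All MKα3+ libraries lay above all MKα3- libraries of the same treatment, and replicate 1 was the lowest of its group in 3 of 4 groups. This was a log2 fold change of 0.73 (SE 0.17, limma-voom adjusted p = 0.00433), or 1.66-fold, in vehicle. It was 0.78 (SE 0.18, limma-voom adjusted p = 0.00252), or 1.72-fold, in LN332. The exact two-sided permutation p was 0.0286 in each treatment, unadjusted, which is the smallest that 4 libraries against 4 allow. It came from a family of 40 such tests over the 10 genes.

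The type II receptor gene *Tgfbr2* (chromosome 9, 116084293 to 116175360, minus strand) rose beside it. With vehicle, its level was 236, 250, 253 and 260 CPM in MKα3- replicates 1 to 4 and 314, 399, 412 and 374 CPM in MKα3+ replicates 1 to 4. In LN332 it had 224, 282, 298 and 264 CPM in MKα3- cells and 302, 477, 495 and 483 CPM in MKα3+ cells. The lines did not overlap in either treatment, although replicate 1 of MKα3+ LN332, at 302 CPM, came close to the highest MKα3- LN332 library at 298 CPM. The log2 fold change was 0.58 (SE 0.14, limma-voom adjusted p = 0.00488) in vehicle and 0.70 (SE 0.14, limma-voom adjusted p = 0.00107) in LN332, with an unadjusted exact permutation p of 0.0286 in each. Both receptor genes were also called in each treatment without the 4 libraries of number 1 and in each of the 16 fits that left out 1 library.

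*Smad3* (chromosome 9, 63646767 to 63757994, minus strand), which encodes the transcription factor that the receptors phosphorylate, had the smallest standard error of the called genes. Its level in vehicle was 65.1, 57.0, 56.1 and 58.0 CPM in MKα3- replicates 1 to 4 and 86.9, 91.3, 86.8 and 82.6 CPM in MKα3+ replicates 1 to 4. In LN332 it had 61.5, 72.0, 66.9 and 70.6 CPM in MKα3- cells and 78.3, 102, 97.4 and 98.7 CPM in MKα3+ cells, so the lines did not overlap in either treatment. The log2 fold change was 0.56 (SE 0.09, limma-voom adjusted p = 0.000156) in vehicle. In LN332 it was 0.47 (SE 0.09, limma-voom adjusted p = 0.000731), which passed the adjusted p but not the fold change of the call. Without replicate 1 of MKα3+ LN332 it reached 0.55 (limma-voom adjusted p = 8.39e-05) and passed both.

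*Skil* (chromosome 3, 31095058 to 31122577, plus strand), which encodes a SMAD-binding repressor, was higher in MKα3+ cells by an amount close to the fold change set for a call. In vehicle it had 58.6, 48.1, 52.1 and 61.0 CPM in MKα3- replicates 1 to 4 and 89.5, 75.7, 68.2 and 79.9 CPM in MKα3+ replicates 1 to 4. In LN332 it had 71.3, 63.8, 67.8 and 67.2 CPM in MKα3- cells and 93.9, 76.2, 89.6 and 91.6 CPM in MKα3+ cells. The lines did not overlap in either treatment, and the unadjusted exact permutation p was 0.0286 in each. Its log2 fold change was 0.51 (SE 0.10, limma-voom adjusted p = 0.000943) in vehicle and 0.38 (SE 0.10, limma-voom adjusted p = 0.00806) in LN332. The vehicle value fell under 0.5, and the call was lost, without MKα3- vehicle replicate 2 (0.45) or 3 (0.49), without MKα3+ vehicle replicate 1 (0.44) or 4 (0.4985), and without the 4 libraries of number 1, although the limma-voom adjusted p for those 4 single libraries stayed between 0.00399 and 0.00476.

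*Smad7*, the inhibitor that acts on the receptor, was not called between the lines in either treatment. In vehicle it had 39.2, 23.4, 29.3 and 27.7 CPM in MKα3- replicates 1 to 4 and 38.7, 27.7, 33.5 and 36.2 CPM in MKα3+ replicates 1 to 4, with overlapping lines. The line difference on the log2 scale was 0.20 (SE 0.17, 95% interval -0.15 to 0.56, limma-voom adjusted p = 0.398) in vehicle. It was 0.01 (SE 0.16, 95% interval -0.34 to 0.36, limma-voom adjusted p = 0.968) in LN332. A difference as large as the 0.73 of *Tgfbr1* lay outside both intervals. The vehicle interval reached 0.563, beside vehicle differences of 0.579 for *Tgfbr2* and 0.559 for *Smad3*. A rise as large as that of *Smad3* in vehicle therefore lay within it. With replicate number as a blocking term the vehicle difference of *Smad7* was 0.20 (limma-voom adjusted p = 0.0468), under the fold change of a call.

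*Tgfbi*, a matrix protein gene named for its induction by TGF-β, had the widest spread of the more abundant genes and a value in the opposite direction. In vehicle it had 6.81, 18.4, 16.7 and 13.9 CPM in MKα3- replicates 1 to 4 and 3.86, 6.01, 14.8 and 15.0 CPM in MKα3+ replicates 1 to 4. In LN332 it had 7.72, 20.1, 20.4 and 13.8 CPM in MKα3- cells and 3.74, 4.55, 5.88 and 14.2 CPM in MKα3+ cells, so MKα3+ replicate 4 lay within the MKα3- range and the other 3 MKα3+ libraries below it. The log2 fold change was -0.63 (SE 0.46, limma-voom adjusted p = 0.334) in vehicle and -1.23 (SE 0.50, limma-voom adjusted p = 0.0688) in LN332, and neither was called. In LN332 it was called as lower in MKα3+ cells without MKα3- vehicle replicate 1 (-1.23, limma-voom adjusted p = 0.0491), MKα3- LN332 replicate 1 (-1.54, adjusted p = 0.0228) or MKα3+ LN332 replicate 4 (-1.66, adjusted p = 0.0366).

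**Figure D2:**
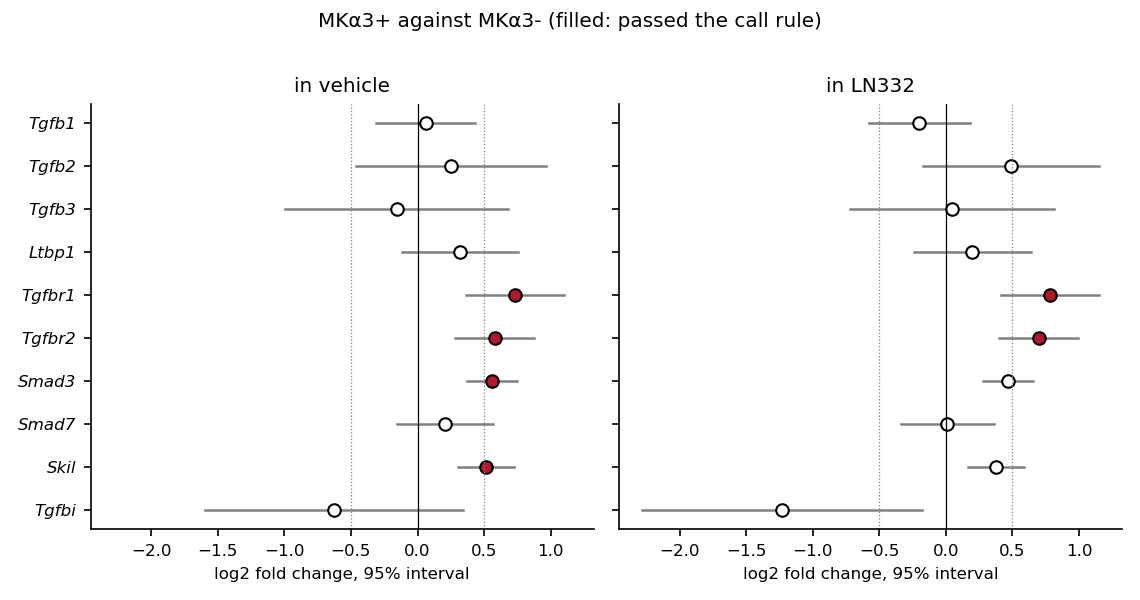
Log2 fold change of MKα3+ against MKα3- (x axis) with its 95% interval for each of the 10 genes (y axis), in vehicle and in LN332. Filled points passed the call rule, and dotted lines mark its fold change of 0.5. *Tgfbr1* and *Tgfbr2* are filled in both panels, *Smad3* and *Skil* only in vehicle, and the interval of *Tgfbi* is the widest in LN332.

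The 5 genes whose log2 CPM profile over the 16 libraries was closest to that of *Tgfbr1*, after centring each gene on its mean, were *Sptbn1*, *Slc6a6*, *Zfp292*, *Slc5a3* and *Mpdz*. The root mean square difference from *Tgfbr1* was 0.104 log2 units for *Sptbn1*, which encodes a spectrin, 0.132 for the transporter gene *Slc6a6*, 0.145 for *Zfp292*, 0.150 for the transporter gene *Slc5a3* and 0.151 for *Mpdz*. None of the other 9 genes was among these 5.

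The comparison of LN332 with vehicle addresses the response to the added laminin within each line. In the fits without a term for the replicate number, 0 of the 10 genes were called in either line by limma-voom, edgeR or DESeq2. In MKα3+ cells 0.187% of all genes were called by limma-voom, and the number with an unadjusted p under 0.05 was 0 of the 10 in limma-voom, 0 in edgeR and 1 in DESeq2, beside 1388, 1371 and 1471 of all 14474 genes. In MKα3- cells 0.304% of all genes were called by limma-voom, and 4, 3 and 4 of the 10 genes had an unadjusted p under 0.05 in these tools, beside 2023, 2025 and 2156 of all 14474 genes. The median log2 difference of the 10 genes was 0.19 in MKα3+ and 0.25 in MKα3- cells, and that of all genes was -0.01 in both.

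The lowest unadjusted p-values of the 10 genes were those of the inhibitor genes in MKα3- cells. *Smad7* had 53.3, 32.3, 42.3 and 45.9 CPM in MKα3- LN332 replicates 1 to 4 and 49.0, 34.9, 43.8 and 45.6 CPM in MKα3+ LN332 replicates 1 to 4, where the vehicle libraries had 23.4 to 39.2 and 27.7 to 38.7 CPM. LN332 and vehicle ranges overlapped in both lines, and in every group replicate 1 was the highest and replicate 2 the lowest. The log2 difference of *Smad7* was 0.54 (SE 0.17, unadjusted p = 0.00497, limma-voom adjusted p = 0.175) in MKα3- cells. It was 0.35 (SE 0.17, unadjusted p = 0.0532, limma-voom adjusted p = 0.529) in MKα3+ cells. In each line the level was higher with LN332 in 4 of 4 libraries of the same number.

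*Skil* had 63.8 to 71.3 CPM in MKα3- LN332 libraries, all above the 48.1 to 61.0 CPM of MKα3- vehicle libraries. Its log2 difference was 0.30 (SE 0.10, unadjusted p = 0.00779, limma-voom adjusted p = 0.201), with an unadjusted exact permutation p of 0.0286. In MKα3+ cells the ranges of *Skil* overlapped, at 76.2 to 93.9 CPM with LN332 and 68.2 to 89.5 CPM with vehicle, and the log2 difference was 0.17 (SE 0.10, limma-voom adjusted p = 0.656).

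Among the ligand and latency genes, *Tgfb1* was the only gene whose LN332 and vehicle libraries did not overlap in MKα3+ cells. It had 45.5, 39.3, 48.6 and 45.5 CPM with LN332, below the 52.2 to 59.5 CPM of vehicle libraries, with an unadjusted exact permutation p of 0.0286. The share of all genes without overlap between LN332 and vehicle libraries was not counted in either line. The limma-voom fit, which shares 1 estimate of spread among groups, gave -0.32 (SE 0.18, adjusted p = 0.619). This was also smaller than the fold change set for a call. Why the tests of *Tgfb1* differed was not tested. In MKα3- cells the value was -0.06 (SE 0.18, limma-voom adjusted p = 0.926). *Ltbp1* had 97.5 to 152 CPM in MKα3- LN332 and 122 to 183 CPM in MKα3+ LN332 libraries, overlapping vehicle in both, with log2 differences of 0.46 (SE 0.21, adjusted p = 0.336) in MKα3- and 0.34 (SE 0.21, adjusted p = 0.684) in MKα3+ cells.

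The receptor genes and *Smad3*, which were called between the lines in vehicle, were not called with LN332. The log2 difference of *Tgfbr1* was -0.08 (95% interval -0.45 to 0.28) in MKα3+ and -0.13 (95% interval -0.50 to 0.24) in MKα3- cells. That of *Tgfbr2* was 0.21 (95% interval -0.09 to 0.51) in MKα3+ and 0.09 (95% interval -0.20 to 0.38) in MKα3- cells. *Smad3* gave 0.11 (95% interval -0.08 to 0.30) in MKα3+ and 0.20 (95% interval 0.01 to 0.39) in MKα3- cells. For these 3 genes the upper ends of the intervals lay between 0.24 and 0.51. Each lay under the gene's own line difference in vehicle, 0.73 for *Tgfbr1*, 0.58 for *Tgfbr2* and 0.56 for *Smad3*. The upper end of *Tgfbr2* in MKα3+ cells, 0.51, came close to its 0.58.

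**Figure D3:**
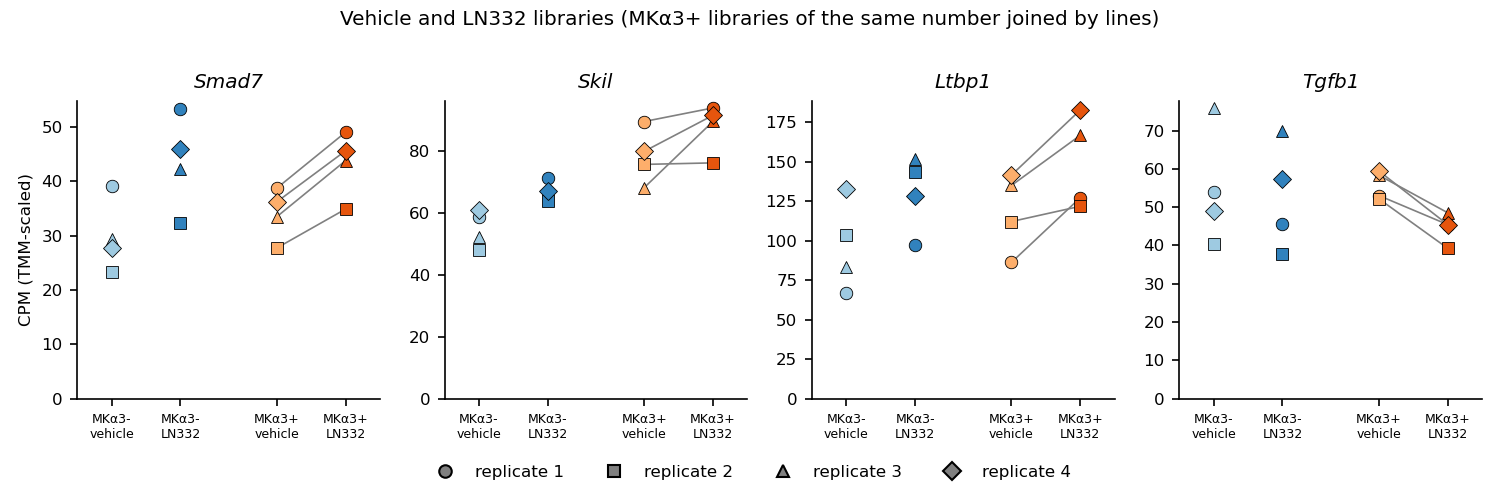
TMM-scaled CPM (y axis, from 0) of *Smad7*, *Skil*, *Ltbp1* and *Tgfb1* in the 16 libraries by group, with lines joining MKα3+ libraries of the same number. *Smad7* is higher with LN332 in each of the 4 joined pairs, and *Tgfb1* is lower in each.

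The difference between the lines in their response to LN332 was tested as an interaction, and 0 of the 10 genes and 0% of all genes were called by limma-voom, edgeR and DESeq2. Of the 10 genes 0 had an unadjusted p under 0.05 in each of these tools, and of all genes 164 did in limma-voom, 168 in edgeR and 207 in DESeq2. The interaction of *Smad7* was -0.19 (95% interval -0.69 to 0.30) and that of *Skil* -0.13 (95% interval -0.43 to 0.16) on the log2 scale. For *Tgfb1* it was -0.26 (95% interval -0.79 to 0.27), so the lower *Tgfb1* level with LN332 in MKα3+ cells was not shown to be particular to that line. The intervals were widest for *Tgfbi*, at -2.03 to 0.83, and for *Tgfb3*, at -0.93 to 1.34.

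**Figure D4:**
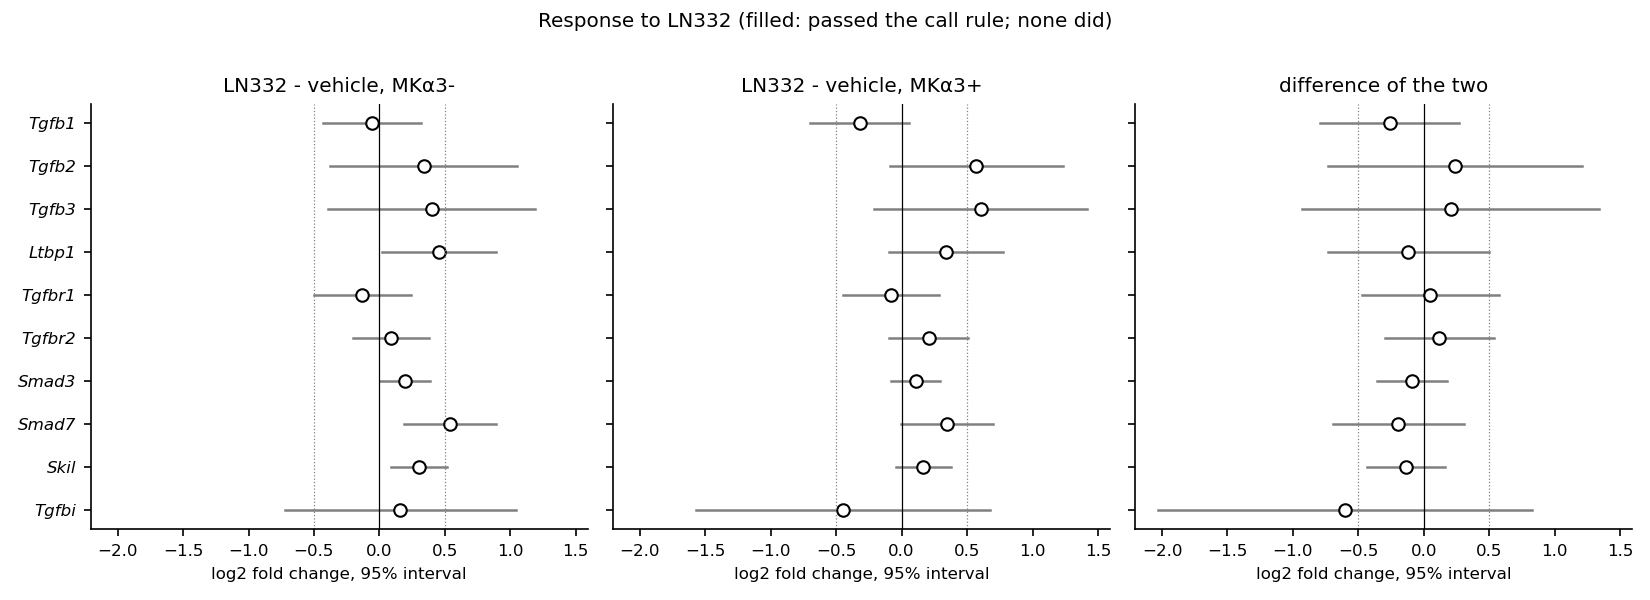
Log2 difference of LN332 against vehicle in MKα3- and MKα3+ cells, and the difference between these responses (x axes), with 95% intervals, for each of the 10 genes. No point is filled, as none passed the call rule, and in MKα3- cells the intervals of *Smad7*, *Skil*, *Ltbp1* and *Smad3* lie above 0.

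A wider list of 77 measured genes of TGF-β, activin and bone morphogenetic protein (BMP) signalling was used to place the 10 genes. Like them, it was chosen with earlier results of these data known. In vehicle 18 of the 77 were called between the lines, 11 higher and 7 lower in MKα3+ cells, and in LN332 16 were called, 11 higher and 5 lower. These shares stand beside the 18.5% and 20.6% of all genes, and the median log2 fold change of the 77 was 0.14 in vehicle and 0.13 in LN332, where that of all genes was 0.01. By list, the medians in vehicle were 0.13 for latency and activation, -0.23 for receptors and co-receptors, 0.14 for SMADs and partners, 0.22 for inhibitors and feedback, 0.14 for genes known to rise with TGF-β, -0.41 for genes known to fall with it and 0.20 for activin and BMP ligands and antagonists. Of 7 further receptor and co-receptor genes, *Tgfbr3*, which encodes the co-receptor betaglycan, was higher in MKα3+ cells in both treatments, by 3.14 (SE 0.48, limma-voom adjusted p = 9.84e-05) in vehicle and 1.96 (SE 0.49, limma-voom adjusted p = 0.00556) in LN332 on the log2 scale. Its counts were low, at 5 to 28 per MKα3- library and 33 to 106 per MKα3+ library, and another transcript overlaps its exons. *Acvr2b*, an activin receptor gene, was lower in MKα3+ cells, at -0.79 in vehicle and -0.86 in LN332, a call that was lost in 5 of the 16 fits without 1 library in each treatment and, in vehicle, with edgeR (-0.74, adjusted p = 0.0509). In limma-voom, 1 of these 7 genes in vehicle and 2 in LN332 had a positive log2 fold change. In LN332, edgeR and DESeq2 each called 3 of the 7 as lower, where limma-voom called 1. Of 8 further SMAD and partner genes 0 were called in either treatment by limma-voom, edgeR or DESeq2, and in each tool 0 had an unadjusted p under 0.05 in vehicle and 2 in LN332.

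Of 11 latency and activation genes, *Thbs1*, the gene of the TGF-β activator thrombospondin 1, was higher in MKα3+ cells in both treatments. It had 683, 857, 681 and 1154 CPM in MKα3- vehicle replicates 1 to 4 and 1788, 3200, 4103 and 3526 CPM in MKα3+ vehicle replicates 1 to 4. The log2 fold change of *Thbs1* was 1.88 (SE 0.26, limma-voom adjusted p = 4.19e-05) in vehicle and 1.95 (SE 0.27, limma-voom adjusted p = 3.57e-05) in LN332. *Ltbp2* was lower in vehicle, at -0.50 on the log2 scale, a call that was lost in 5 of the 16 fits without 1 library. Of 14 inhibitor and feedback genes, *Smurf2*, a ubiquitin ligase gene, was higher by 0.76 in vehicle and 0.78 in LN332, and *Ldlrad4* by 0.72 and 0.53. The *Ldlrad4* call in LN332 was lost with edgeR (0.46, adjusted p = 0.0998), with DESeq2 (0.45, adjusted p = 0.0875) and with only the groups compared in limma-voom (0.51, adjusted p = 0.0733). It was also lost in LN332 in 7 of the 16 fits without 1 library, and without the 4 libraries of number 1 in vehicle (0.52, limma-voom adjusted p = 0.0771) and in LN332 (0.33, limma-voom adjusted p = 0.213).

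Among 21 genes known to rise with TGF-β, 5 were higher and 2 lower in MKα3+ cells in each treatment. In vehicle the higher genes included *Fn1* (fibronectin) at 2.19, *Col4a1* (a collagen IV chain) at 1.52 and *Ccn2* (connective tissue growth factor) at 1.24 on the log2 scale. *Fn1* had 3.75, 7.56, 8.08 and 9.88 CPM in MKα3- vehicle libraries and 24.7, 47.7, 30.8 and 27.8 CPM in MKα3+ vehicle libraries. *Col4a1* had 99.99 to 133 CPM in MKα3- vehicle and 290.3 to 356 CPM in MKα3+ vehicle libraries, without overlap. The lower genes were *Tgm2* (transglutaminase 2) at -1.81 and *Snai2* (the transcription factor Slug) at -0.96, so members of this list moved in both directions. In LN332 the values were 2.30 for *Fn1*, 1.79 for *Col4a1*, 1.38 for *Col4a2*, -1.94 for *Tgm2* and -1.29 for *Snai2*. In LN332 *Ccn2* was higher by 0.68 (limma-voom adjusted p = 0.0216), and it was no longer called without the 4 libraries of number 1, at 0.44 (limma-voom adjusted p = 0.155). That call was also lost in 4 of the 16 fits without 1 library. *Fn1*, *Thbs1*, *Ccn2*, *Tgm2*, *Fst*, *Chrd*, *Ldlrad4* and *Ltbp2* share exon positions with transcripts of the other strand, and *Col4a1* and *Col4a2* overlap each other, so their counts are uncertain to that extent.

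Of 5 genes known to fall with TGF-β, *Id3* was called lower in MKα3+ cells in vehicle, at -0.65, and *Id2* in LN332, at -0.72. Both encode inhibitors of differentiation. *Myc* and *Cdc25a*, also on this list, had positive values in vehicle, at 0.37 and 0.34 on the log2 scale. Neither was called (limma-voom adjusted p = 0.0624 and 0.0998). In each treatment 2 of the 5 genes had a positive log2 fold change, so this list also moved in both directions. Of 11 activin and BMP ligand and antagonist genes, *Inhba*, the activin A subunit gene, was higher by 2.71 (SE 0.37, limma-voom adjusted p = 2.73e-05) in vehicle and 2.67 (SE 0.30, limma-voom adjusted p = 3.75e-06) in LN332. *Inhba* had 3 to 12 counts per MKα3- vehicle library and 36 to 60 per MKα3+ vehicle library, so the size of this fold is imprecise. *Fst*, the gene of the activin antagonist follistatin, was lower in MKα3+ cells, at -1.41 in vehicle and -1.33 in LN332, with 381 to 640 CPM in MKα3- vehicle and 134 to 234 CPM in MKα3+ vehicle libraries. *Nog*, a BMP antagonist gene, was higher by 2.16 and 3.05 at 3 to 17 counts per MKα3- vehicle library. *Chrd*, another BMP antagonist gene, was lower in vehicle, at -2.12, with 8 to 14 counts per MKα3+ vehicle library.

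**Figure D5:**
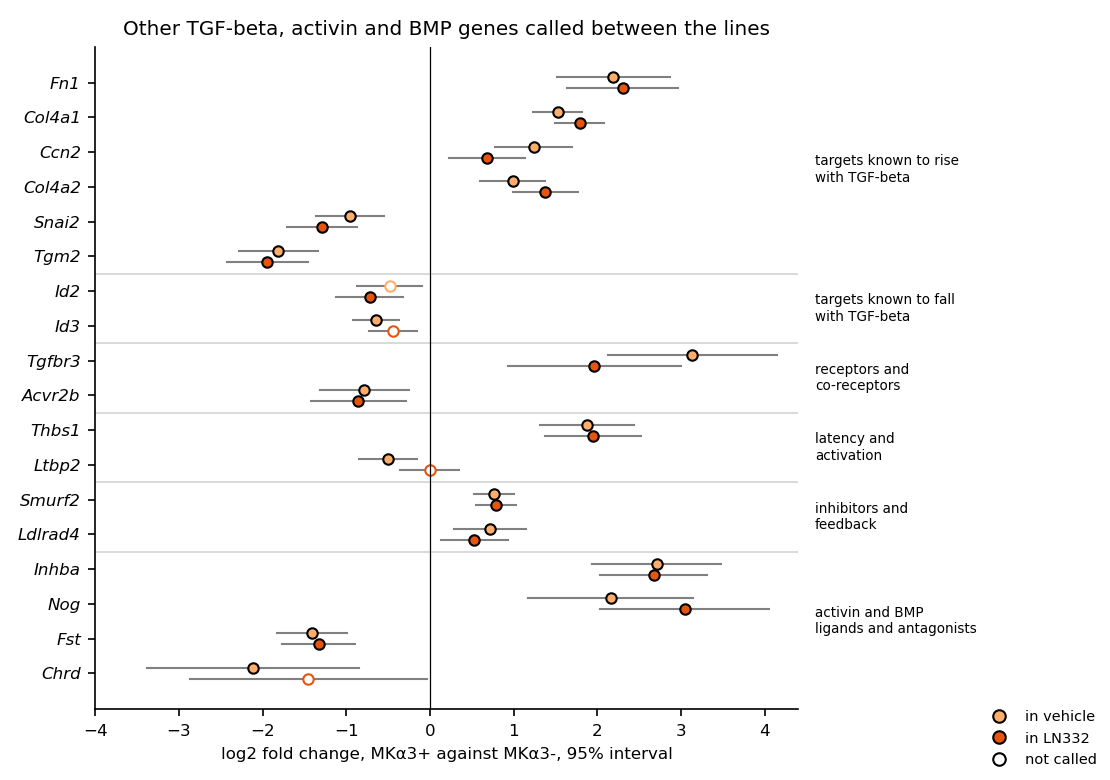
Log2 fold change of MKα3+ against MKα3- (x axis) with 95% intervals for 18 further pathway genes called in at least 1 treatment (y axis), in vehicle and in LN332 and grouped by list. Open points were not called. Genes known to rise with TGF-β appear on both sides of 0, with *Fn1* at 2.19 and *Tgm2* at -1.81 in vehicle.

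With LN332, *Ccn2* was the only called gene of the 77 in each line. It rose from 35.2, 26.7, 27.6 and 44.0 CPM in MKα3- vehicle replicates 1 to 4 to 112, 102, 164 and 160 CPM in MKα3- LN332 replicates 1 to 4, a log2 difference of 2.01 (SE 0.22, limma-voom adjusted p = 0.000683). In MKα3+ cells the difference was 1.45 (SE 0.21, limma-voom adjusted p = 0.0221), and the call was lost without MKα3+ vehicle replicate 2 (adjusted p = 0.134) or 4 (adjusted p = 0.0784) and without MKα3+ LN332 replicate 3 (adjusted p = 0.0976) or 4 (adjusted p = 0.1004). In MKα3+ cells, where libraries of the same number deviated together, limma-voom with number as a blocking term called 3 of the 77, adding *Fst* (0.83, adjusted p = 0.00313) and *Myc* (0.53, adjusted p = 0.0102), against 1.51% of all genes. That fit called 0 of the 10 genes, and *Smad7* had the lowest adjusted p, at 0.0186 with a log2 difference of 0.35. The 95% intervals of *Smad7* ended at 0.70 in MKα3+ and 0.89 in MKα3- cells, and that of *Ccn2* began at 1.001 in MKα3+ and 1.55 in MKα3- cells.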

How the data were processed

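RNA was measured in 16 libraries made with a poly(A) kit that does not mark strand. The authors aligned reads to mm10 with Rsubread, counted them per Entrez gene with featureCounts, and deposited raw counts. Depth was 21735708 to 29338370 counts per library, and low counts limit *Tgfb2* and *Tgfb3*. A filter of over 0.5 CPM in at least 3 libraries, as in the study, removed 0 of 14474 genes.

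Counts were scaled by TMM (edgeR 4.0.16) and fitted with limma-voom (limma 3.58.1, R 4.3.3), with 1 coefficient per group over all 16 libraries and p-values adjusted by Benjamini-Hochberg over all genes. A call needed a log2 fold change beyond 0.5 in either direction with an adjusted p under 0.05. Single genes were also compared by an exact two-sided permutation test of mean CPM over 70 arrangements. Groups came from the sample labels. The closest pair of replicates in a group had a chi-square per degree of freedom of 5.52, so no library was counted as a repeat of another. In MKα3+ cells, LN332 and vehicle libraries of the same number deviated together (r from 0.202 to 0.620, and 4 of 4 correlated best with their own number), so a fit blocked by replicate number is given beside that comparison. The pairing rests on this correlation, since the labels give only a number.

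The members and lists were chosen with earlier results of these data known. Named pathway genes were up to 4 called genes per direction, list and comparison with the largest absolute log2 fold change. *Fst* and *Myc* with LN332, and *Myc* and *Cdc25a* between the lines, were named after their values were seen. The values of 1 gene that the rule selects are not reported here. Listed genes were matched to GENCODE vM21 for positions and exon lengths (110 of 110). As alternatives, DESeq2 1.42.0, the quasi-likelihood test of edgeR, other scalings, filters, fold thresholds and sample weights, the replicate block and fits without single libraries were tried. The edgeR fit with the block and the fits without the 4 libraries of number 1 were chosen after seeing the data. The scripts were tested on simulated data. Figures were drawn with matplotlib 3.10.9 in Python 3.11.15.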

Additional observations from a re-analysis of the deposited data

Results flagged for a closer look

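Of 40 groups of 4 libraries (10 genes in 4 groups), 4 held a library whose gap to the nearest other library was a larger share of the group's range than Dixon's 95% critical value, where chance gives about 2. *Tgfbr1* had 51.7 CPM in MKα3- vehicle replicate 1 and 61.9 to 63.3 CPM in the other libraries of that group. It had 79.2 CPM in MKα3+ vehicle replicate 1 and 106 to 107 CPM in the others. *Tgfbr2* had 302 CPM in MKα3+ LN332 replicate 1 and 477 to 495 CPM in the others. *Tgfb2* had 0.824 CPM in MKα3+ LN332 replicate 4 and 1.79 to 1.95 CPM in the others. Of these libraries 3 carried number 1, and both receptor genes were still called higher in MKα3+ cells without the 4 libraries of that number.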

How the results depend on the processing

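With a minimum absolute log2 fold change of 1, 0 of the 10 genes were called between the lines in either treatment, and 11 of the 77 pathway genes in vehicle. In LN332 the number of the 10 called between the lines was 4 by adjusted p alone, beside 4654 of all 14474 genes. It was 4 without the 4 libraries of number 1, and 2 to 4 when 1 library was left out, the 4 being reached without MKα3+ LN332 replicate 4. The shares of all genes with the fold change of 1 and in the fits without libraries are not given here. With LN332 in MKα3+ cells the pathway count was 4 with DESeq2, 3 with the replicate block, 6 with sample quality weights, 2 with only the groups compared, 3 with edgeR and the replicate block, 2 without the number 1 libraries and 0 to 1 in the leave-one-out fits. There, DESeq2 called 118 and the replicate block 218 of all 14474 genes, where the main fit called 27. In MKα3- cells the pathway count was 4 with DESeq2, 4 with the replicate block, 4 with quality weights, 5 with edgeR and the replicate block, 4 without the number 1 libraries and 1 to 3 in the leave-one-out fits (3 without MKα3- LN332 replicate 1 or 3). In that line DESeq2 called 158 and the replicate block 259 of all 14474 genes, where the main fit called 44. The shares of all genes in the other fits are not given here. The replicate block called 1 of the 10 genes with LN332 in MKα3- cells, *Smad7* (limma-voom adjusted p = 0.00225), and so did edgeR with the replicate block (1 gene). It also called *Tgfbi* between the lines in LN332 (-1.20, adjusted p = 0.0132), as did quality weights (-1.36, adjusted p = 0.0238) and only the groups compared (-1.25, adjusted p = 0.0431). In these comparisons libraries share only a number: same-numbered libraries correlated at -0.0118 to 0.507 in MKα3- cells (2 of 4 best with their own number), 0.0913 to 0.267 between vehicle lines (3 of 4) and -0.0469 to 0.558 between LN332 lines (3 of 4). The *Ldlrad4* call between LN332 lines was lost with the replicate block (0.4951) and edgeR with the replicate block (0.49), and the *Ltbp2* call between vehicle lines with at least 10 counts in every library (-0.4978) and quality weights (-0.47). The *Skil* call between vehicle lines was lost with library size alone (0.4976) and quality weights (0.48), and its exact p rose with library size alone to 0.0571 between LN332 lines and 0.114 with LN332 in MKα3- cells.

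Values that changed sign were all uncalled. Between LN332 lines *Tgfb3* was -0.02133 with edgeR and -0.02368 with DESeq2, and *Smad7* was -0.00431 with edgeR, -0.008248 with DESeq2, -0.001679 with library size alone and -0.00429 with only the groups compared, and with log2(CPM + 1) their exact p was 0.8857 and 1. *Tgfbr1* with quality weights was 0.01954 with LN332 in MKα3- cells and -0.081 as the interaction. Leaving out 1 library gave *Tgfb1* -0.072 to 0.23 and *Tgfb3* -0.41 to 0.16 between vehicle lines, *Tgfb3* -0.12 to 0.33 and *Smad7* -0.13 to 0.12 between LN332 lines, *Tgfbr1* -0.19 to 0.051 with LN332 in MKα3+ cells, *Tgfb1* -0.21 to 0.11, *Tgfbr1* -0.24 to 0.039 and *Tgfbi* -0.15 to 0.46 with LN332 in MKα3- cells, and interactions of -0.12 to 0.49 for *Tgfb3*, -0.12 to 0.18 for *Tgfbr1* and -0.29 to 0.043 for *Ltbp1*. The cause was not tested. Of 2205 fold changes over genes, comparisons and settings, 2115 kept their direction and their side of the threshold. Counts of 11 to 50 per library limit *Tgfb2* and *Tgfb3*.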
